A study of Rattus norvegicus with 105 samples.

Results

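Medium haloperidol was compared with vehicle in the frontal cortex of rats that had received their treatment chronically, on 9 arrays against 9. These 18 arrays were chosen by their descriptions and belong to the neuroleptic experiment, whose 63 arrays in 7 groups also cover low and high haloperidol and low, medium and high clozapine. The whole series holds 105 arrays of rat frontal cortex in 11 groups. Each Affymetrix array gave 1 intensity for each of 31042 probe sets that are not controls, and a probe set is a group of short oligonucleotides that together report 1 transcript. Low, medium and high are words in the labels with no amounts, and the sources used here do not give the route, the duration, the make-up of the vehicle or the strain, sex and age of the rats. The labels also do not say whether arrays and animals match 1 to 1. The p-values below therefore reflect how far these samples vary, and some of that variation may be technical.

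Haloperidol is a typical antipsychotic that blocks dopamine D2 receptors, which are dense in the striatum and sparse in the frontal cortex. D2 receptors signal through inhibitory G proteins and lower cyclic AMP, and D1 receptors signal through stimulatory G proteins and raise it. Synaptic activity and cyclic AMP switch on immediate early genes within minutes through transcription factors that are already present in the neuron. Among these genes are transcription factors such as Fos and Egr1 and synaptic proteins such as Arc and the short form of Homer1. The comparison asks which transcripts of the frontal cortex differ after long treatment at the middle of the 3 levels.

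The arrays were alike in scale, with trimmed means of 2500.7 intensity units and medians from 817.5 to 960.5 on the 18 arrays, and no pair of the 63 arrays held identical values. The titles carry sample numbers, and the labels do not say what these numbers follow. They run from 2 to 64 and were divided here into 4 successive blocks, which the labels do not name. These blocks held 72.3% of the first principal component, while the 7 groups held 8.56% (that component carried 23.1% of the variance). Every block holds medium haloperidol and vehicle, with 3, 2, 2 and 2 medium haloperidol arrays and 2, 2, 2 and 3 vehicle arrays. The mean correlation of an array with the others ran from 0.961 to 0.977 over the 18 arrays and was lowest in medium haloperidol replicates 9 and 8, at 0.961 and 0.965, both in the last block. For this reason values within blocks stand beside the main genes below. Of 14 markers of cortical neurons 13 were on the array, all 13 of them among the brighter probe sets tested, and their summed intensity ran from 359718 to 432068 on the medium haloperidol arrays and from 372882 to 412733 on the vehicle arrays.

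A single transcript rose past the threshold. A probe set of Homer1, which encodes a scaffold of the postsynaptic density that ties metabotropic glutamate receptors to calcium stores, was 1.78-fold higher with medium haloperidol. The immediate early transcription factors Fos, Egr1, Egr2 and Egr4 and the synaptic gene Arc were higher as values, by 1.36-fold to 2.43-fold, and none of them passed the test after adjustment. Jun, the partner of Fos in the AP-1 complex, was lower as a value. Calls were made at an adjusted p under 0.05 with limma and Benjamini-Hochberg adjustment over 18625 probe sets, on log2 intensities. In bulk tissue, fewer cells of a type and less RNA per cell cannot be told apart, for this and every later value.

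The sequences before the starts of the called gene and of 4 immediate early transcription factors that were higher as values are shown here because neuronal activity is known to induce these genes. Each runs 5′ to 3′ from 250 bases before the annotated start to 50 bases after it, from RefSeq on the GRCr8 assembly. Capitals mark CArG boxes, the sites of serum response factor, and TGACG, the core letters of the cyclic AMP response element, on either strand, so that a match on the other strand reads CGTCA. Homer1 (chr2:26278762-26279061, plus strand) had no match to either. Egr1 (chr18:26736828-26737127, plus strand) held 2 CArG boxes and 2 TGACG matches, and Egr2 (chr20:21054392-21054691, minus strand) held 1 of each. Egr4 (chr4:119607768-119608067, minus strand) held 2 TGACG matches and Nr4a1 (chr7:134259888-134260187, plus strand) held 4, with no CArG box in either window.
Homer1: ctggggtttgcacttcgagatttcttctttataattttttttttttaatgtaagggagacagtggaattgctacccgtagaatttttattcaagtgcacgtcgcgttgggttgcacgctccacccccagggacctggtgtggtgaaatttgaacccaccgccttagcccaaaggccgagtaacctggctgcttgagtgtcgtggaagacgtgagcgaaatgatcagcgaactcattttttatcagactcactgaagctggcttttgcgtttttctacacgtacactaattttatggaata
Egr1: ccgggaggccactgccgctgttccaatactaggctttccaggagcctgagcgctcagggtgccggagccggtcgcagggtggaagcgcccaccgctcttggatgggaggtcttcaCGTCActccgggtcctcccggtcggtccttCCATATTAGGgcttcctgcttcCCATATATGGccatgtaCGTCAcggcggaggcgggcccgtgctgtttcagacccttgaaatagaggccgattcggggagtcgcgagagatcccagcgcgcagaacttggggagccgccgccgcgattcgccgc
Egr2: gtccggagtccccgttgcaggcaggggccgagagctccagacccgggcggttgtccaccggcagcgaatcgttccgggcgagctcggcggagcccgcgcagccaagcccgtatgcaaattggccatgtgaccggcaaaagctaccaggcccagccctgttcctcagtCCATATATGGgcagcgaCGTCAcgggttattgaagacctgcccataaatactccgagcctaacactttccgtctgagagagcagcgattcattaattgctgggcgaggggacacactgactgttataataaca
Egr4: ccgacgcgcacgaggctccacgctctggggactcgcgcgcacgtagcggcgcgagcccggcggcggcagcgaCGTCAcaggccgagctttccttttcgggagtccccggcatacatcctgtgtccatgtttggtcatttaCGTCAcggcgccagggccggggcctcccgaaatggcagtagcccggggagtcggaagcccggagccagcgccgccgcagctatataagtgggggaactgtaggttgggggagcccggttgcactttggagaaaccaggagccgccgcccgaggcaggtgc
Nr4a1: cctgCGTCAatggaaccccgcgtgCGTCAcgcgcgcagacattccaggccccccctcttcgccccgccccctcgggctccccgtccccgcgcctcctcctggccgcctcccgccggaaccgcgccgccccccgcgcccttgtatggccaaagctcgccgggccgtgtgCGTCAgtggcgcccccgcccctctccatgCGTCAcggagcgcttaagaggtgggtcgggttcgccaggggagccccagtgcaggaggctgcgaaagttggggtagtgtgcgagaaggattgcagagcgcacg
Over 33469 windows of the same length, 1.64% held a CArG box and 21.2% held TGACG on either strand. None of these 5 windows held the full TGACGTCA, which contains TGACG and was found in 1.83% of all windows, the AP-1 letters TGANTCA (7.33%) or the Egr letters GCGTGGGCG (0.544%). The window of Etv5, an Ets transcription factor described below and not printed, held no match to any of the motifs searched, and Fos and Arc are not shown. A match describes the letters only, and no binding was measured.

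On the called Homer1 probe set, 1370454_at, the medium haloperidol arrays ran from 12.87 through a median of 13.13 to 13.52 log2 units, and the vehicle arrays from 12.05 through 12.26 to 12.77. All 9 medium haloperidol arrays lay above all 9 vehicle arrays. The means were 13.20 ± 0.22 and 12.37 ± 0.26 (SD, n = 9 each), and the difference of 0.83 ± 0.15 (SE) had an adjusted p of 0.0172 (limma). It was 1 of 18625 probe sets called, or 0.00537%, with none called lower, while 874 (4.69%) had an unadjusted p under 0.05. Within the 4 blocks the difference was 0.61, 0.90, 1.26 and 0.60, so that it had the same sign in each. Leaving out single arrays kept the difference between 0.79 and 0.88, but the call was lost in 7 of 18 cases. These were medium haloperidol replicates 1 (adjusted p = 0.0719), 6 (0.0672) and 7 (0.0826) and vehicle replicates 3 (0.0826), 5 (0.0654), 6 (0.0514) and 9 (0.0566), all by limma.

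**Figure D1:**
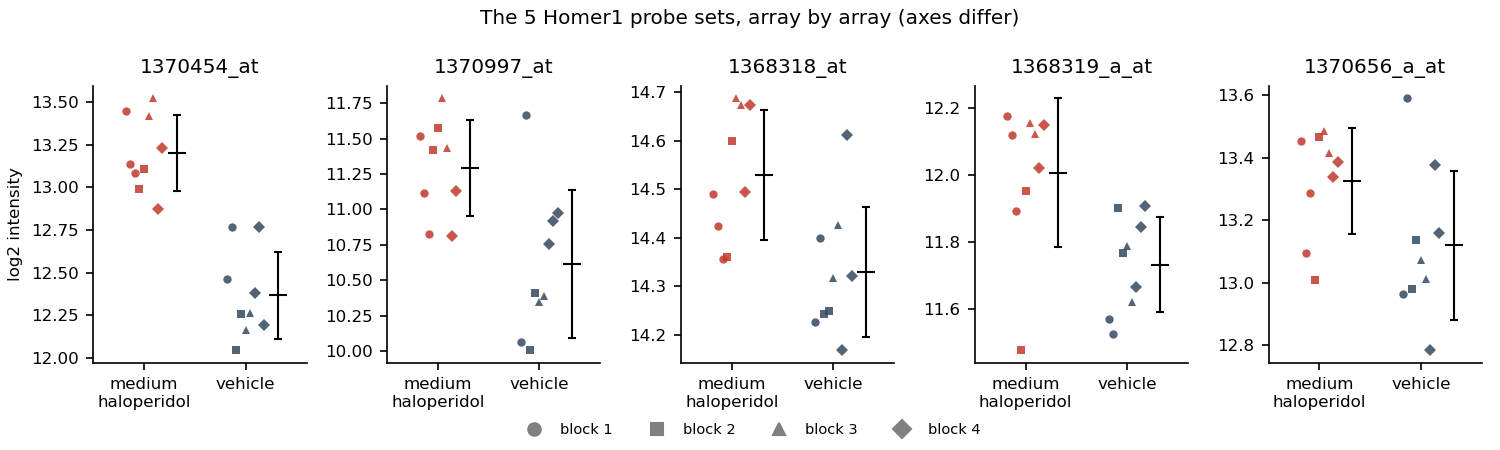
Log2 intensity of the 5 Homer1 probe sets on each medium haloperidol array (left in each panel) and each vehicle array (right), with mean and SD bars (n = 9 each) and symbols for the 4 blocks of sample numbers. The groups are separate on 1370454_at, where the lowest medium haloperidol array is at 12.87 and the highest vehicle array at 12.77, and overlap on the other 4.

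The 4 remaining Homer1 probe sets were all higher as values, and none was called. The second largest difference was on 1370997_at, with medium haloperidol arrays from 10.81 through 11.42 to 11.78 and vehicle arrays from 10.01 through 10.41 to 11.67. Here 9 of 9 medium haloperidol arrays lay above the vehicle mean but only 1 above every vehicle array, because vehicle replicate 1 stood at 11.67. The difference was 0.68 ± 0.21 (SE), or 0.29, 1.29, 1.24 and 0.088 by block. The probe set with the highest mean, 1368318_at, was at 14.53 ± 0.13 with medium haloperidol and 14.33 ± 0.13 with vehicle, a difference of 0.20 ± 0.069. On 1368319_a_at the difference was 0.27 ± 0.10 and on 1370656_a_at it was 0.21 ± 0.10, both with overlapping groups. The probe sets therefore disagreed about the size of the difference, and with all 5 averaged it was 0.44 ± 0.093 (adjusted p = 0.115, limma). The annotation used here does not say which transcript form of Homer1 each probe set reads. Homer3, another member of this scaffold family, was at 9.44 ± 0.28 with medium haloperidol and 9.19 ± 0.24 with vehicle, a difference of 0.26 ± 0.14.

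Immediate early transcription factors were higher on balance, though no member passed the test over all probe sets. Of 23 listed genes 21 were on the array and 15 were bright enough to be tested, of which 14 were higher and 1 lower. Over all 10128 genes, each taken by its brightest probe set, 41.8% were higher with medium haloperidol. The median of the list was 0.16, against -0.016 over all genes. At an unadjusted p under 0.05 the list had 6 higher and 1 lower, where all genes had 1.5% higher and 2.23% lower. Each array's list score, the mean of its members after centring each on its own mean, was 0.16 ± 0.18 in medium haloperidol and -0.16 ± 0.26 in vehicle (SD, n = 9 each), and 9 of 9 medium haloperidol arrays lay above the vehicle mean. The list median stayed between 0.12 and 0.21 when single arrays were left out and was 0.32 without the last block. The mean difference of the members, which large members weigh on more than they do on the median, was 0.31. Within the 4 blocks the difference in mean list score was 0.080, 0.57, 0.68 and 0.061.

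Fos encodes an AP-1 transcription factor and had the largest difference of the list. Its medium haloperidol arrays ran from 10.35 through 11.36 to 11.92 and its vehicle arrays from 8.46 through 10.07 to 11.93. All 9 medium haloperidol arrays lay above the vehicle mean, yet none lay above every vehicle array, since vehicle replicate 1 was the highest of the 18. The difference was 1.28 ± 0.39 (SE, adjusted p = 0.85, limma), and by block it was 0.56, 2.03, 2.81 and 0.25. Vehicle arrays were more spread than medium haloperidol arrays, with SDs of 0.52 for medium haloperidol and 1.2 for vehicle.

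The Egr genes encode zinc finger transcription factors of 1 family. Egr1 ran from 14.42 through 14.87 to 15.09 on the medium haloperidol arrays and from 13.46 through 14.10 to 14.67 on the vehicle arrays, and 6 of 9 medium haloperidol arrays lay above every vehicle array. Its difference of 0.65 ± 0.18 (adjusted p = 0.645, limma) was 0.39, 0.64, 1.07 and 0.69 by block. Egr4 ran from 11.11 through 11.30 to 11.56 against 10.39 through 10.82 to 11.13 in vehicle. It separated the groups most clearly of the family, with 8 of 9 medium haloperidol arrays above every vehicle array. The difference of 0.45 ± 0.12 (adjusted p = 0.522, limma) was nearly the same in every block, at 0.42, 0.39, 0.50 and 0.42. Egr2 was at 10.49 ± 0.52 with medium haloperidol and 9.55 ± 0.73 with vehicle, a difference of 0.94 ± 0.35 that was 0.12, 1.51, 1.93 and 0.73 by block. Egr3 was too dim to be tested.

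The Nr4a genes encode orphan nuclear receptors that neurons induce with activity. Nr4a1 was at 12.22 ± 0.51 in medium haloperidol and 11.66 ± 0.38 in vehicle, and Nr4a3 at 12.28 ± 0.49 in medium haloperidol and 11.92 ± 0.39 in vehicle. The differences were 0.56 ± 0.21 and 0.35 ± 0.15, and each changed sign in 1 block, at -0.17 in the last for Nr4a1 and -0.50 in the first for Nr4a3. Nr4a2 was at 0.049, a smaller difference than that of Nr4a1 or Nr4a3. Junb (0.25 ± 0.19), Jund (0.12 ± 0.095) and Ier2 (0.16 ± 0.16) lay within 2 SE of 0.

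Jun went the other way. Its medium haloperidol arrays ran from 11.86 through 12.18 to 12.44 and its vehicle arrays from 12.22 through 12.44 to 12.63, and 5 of 9 medium haloperidol arrays lay below every vehicle array. The difference was -0.24 ± 0.065 (adjusted p = 0.616, limma), almost all of it from the first and the last block (-0.47 and -0.36, against -0.048 and -0.031 in the middle blocks).

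**Figure D2:**
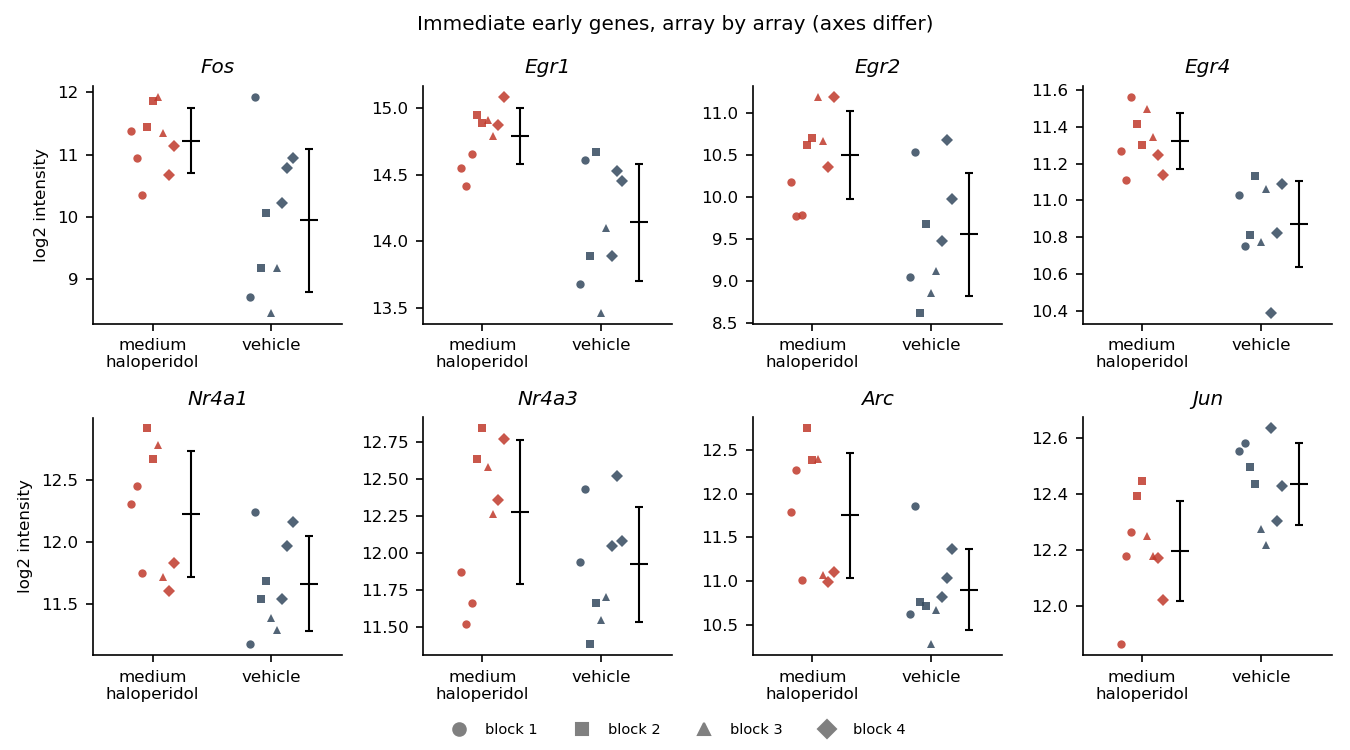
Log2 intensity of 8 immediate early genes on each medium haloperidol array (left) and each vehicle array (right), with mean and SD bars (n = 9 each) and symbols for the 4 blocks of sample numbers. Egr4 separates the groups best, with 8 of 9 medium haloperidol arrays above every vehicle array, while in Fos vehicle replicate 1 is the highest array and in Jun the medium haloperidol mean is the lower.

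Genes that act further down the activity response did not move together. Of 20 tested effectors 9 were higher, with a median of -0.012 and 2 at an unadjusted p under 0.05, which were Arc and the representative probe set of Homer1. Both were higher, where all genes had 1.5% higher at this threshold. Arc encodes a protein of dendrites that takes part in removing AMPA receptors from the synapse. It ran from 11.00 through 11.79 to 12.74 with medium haloperidol and from 10.28 through 10.77 to 11.85 with vehicle. Among the medium haloperidol arrays 4 lay above every vehicle array and the others between 11.00 and 11.79. The difference was 0.85 ± 0.27 (adjusted p = 0.998, limma), or 0.45, 1.82, 1.26 and -0.026 by block. Bdnf, a neurotrophin, differed by 0.20 ± 0.12, and Vgf, a secreted peptide precursor induced by neurotrophins, by 0.22 ± 0.13. Bhlhe40, a repressor that responds to activity and also belongs to the clock, was at -0.22 ± 0.14.

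Etv5, an Ets transcription factor that follows growth factor and MAP kinase signals, had the second smallest p of all probe sets. Its medium haloperidol arrays ran from 11.29 through 11.48 to 11.95 and its vehicle arrays from 10.80 through 11.07 to 11.43. All 9 medium haloperidol arrays lay above the vehicle mean and 6 above every vehicle array. The difference was 0.45 ± 0.094 (adjusted p = 0.104, limma), and by block it was 0.35, 0.60, 0.66 and 0.24. Etv5 passed the threshold without vehicle replicate 4 (adjusted p = 0.0271), without medium haloperidol replicate 8 (0.0394) and without the last block (0.0368), all by limma. A dimmer Etv5 probe set, 1382122_at, was at 0.095 ± 0.14, so the pair differed in size.

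The list of MAP kinase and Ets genes, which includes Etv5, was mixed, with 10 of 15 higher and a median of 0.065. Dusp5 and Dusp6, phosphatases that switch off ERK, were at 0.31 ± 0.14 and 0.23 ± 0.098. Etv4, the nearest relative of Etv5, was at 0.26 ± 0.16. Etv1, the third of this subfamily and a marker of deep cortical layers, was at -0.20 ± 0.090, and at 0.052 with its probe sets averaged. Fgfr1, a fibroblast growth factor receptor upstream of this pathway, was at 11.93 ± 0.12 with medium haloperidol and 11.67 ± 0.14 with vehicle, a difference of 0.26 ± 0.077 seen in 9 of 9 arrays. Grb14, an adaptor that inhibits insulin receptor signalling, was at 0.24 ± 0.075.

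Over the whole comparison 447 probe sets were higher (2.4%) and 427 lower (2.29%) at an unadjusted p under 0.05. Both directions together came to 4.69% in the fit without block, below the share of 0.05 that passes this threshold on average when nothing differs. With block as a term of the fit the count over both directions grew from 874 to 1443, which is above that share. Homer1 alone was still called in that fit. The groups did not overlap on 4 probe sets (0.0215%), 1 higher and 3 lower. The higher one was Homer1. The lower ones were Tcta at -0.21 ± 0.065, a probe set of Vldlr, a lipoprotein and reelin receptor, at -0.20 ± 0.064, and an unnamed probe set, 1375337_at, at -0.17 ± 0.054. The brighter probe set of Vldlr was at -0.081 ± 0.061.

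**Figure D3:**
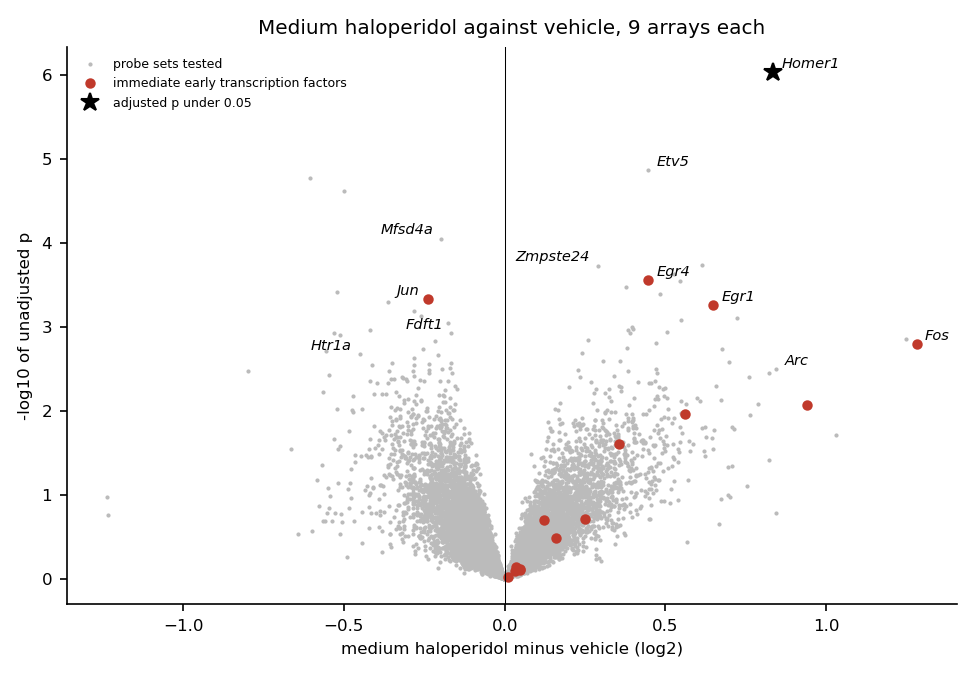
Difference in log2 intensity between medium haloperidol and vehicle for each of 18625 probe sets, against -log10 of its unadjusted p. Large dots are the immediate early transcription factors, all but Jun on the right, and the star is the Homer1 probe set at 0.83, the single one past an adjusted p of 0.05.

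None of the other higher genes was called. Zmpste24, the metalloprotease that processes prelamin A, was at 11.70 ± 0.11 with medium haloperidol and 11.41 ± 0.21 with vehicle. Its difference of 0.29 ± 0.073 (adjusted p = 0.49, limma) put 7 of 9 medium haloperidol arrays above every vehicle array. Eif4e3, a cap-binding protein of the translation initiation family, was at 0.39 ± 0.11 with 7 of 9 arrays above every vehicle array, and Slit1, an axon guidance ligand of Robo receptors, at 0.38 ± 0.11 with 6 of 9. Khk, the fructose kinase, was at 0.40 ± 0.12, but its difference ran from 0.90 in the first block to -0.17 in the third. Pdlim5, a scaffold of protein kinase C, was at 0.30 ± 0.097 with 8 of 9 arrays above every vehicle array. Lpar6, a lysophosphatidic acid receptor, was at 0.38 ± 0.12, Klhl32 at 0.38 ± 0.13 and Cdk13, a kinase of RNA polymerase II, at 0.23 ± 0.074. With its probe sets averaged Cdk13 was at 0.069 and Eif4e3 at 0.20.

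Among the named genes on the lower side the smallest p belonged to Mfsd4a, a membrane transporter of the major facilitator family. Its medium haloperidol arrays ran from 13.16 through 13.31 to 13.43 and its vehicle arrays from 13.36 through 13.49 to 13.64, and 8 of 9 medium haloperidol arrays lay below every vehicle array. The difference was small and even, at -0.20 ± 0.047 (adjusted p = 0.33, limma) and -0.33, -0.11, -0.19 and -0.17 by block. Sorbs2, an adaptor of the actin cytoskeleton, was at -0.18 ± 0.050, also with 8 of 9 arrays below every vehicle array. Znhit3 was at -0.51 ± 0.15 and was lower in every block, from -0.67 to -0.42. Dact1, an antagonist in Wnt signalling, was at -0.56 ± 0.17, where the 2 middle blocks gave -0.20 and 0.0024. Lpl, lipoprotein lipase, was at -0.36 ± 0.12, from -0.42 to -0.24 by block. Zfyve26 (-0.26 ± 0.073), Usp35 (-0.22 ± 0.065), Bahcc1 (-0.35 ± 0.11), Tafazzin, the cardiolipin remodelling enzyme (-0.24 ± 0.077), and Zmat4 (-0.17 ± 0.055) completed this side.

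Of the 30 probe sets with the smallest p, 11 had no single gene name in the annotation. The pair with the smallest p on the lower side were 1381752_at, at 9.08 ± 0.30 with medium haloperidol and 9.69 ± 0.34 with vehicle, and 1394698_at, at 9.41 ± 0.30 with medium haloperidol and 9.92 ± 0.16 with vehicle (SD, n = 9 each). Both were lower in 9 of 9 medium haloperidol arrays than the vehicle mean, with adjusted p of 0.104 and 0.113 (limma). On the higher side 1398587_at was at 0.61 ± 0.15 and 1381291_at at 0.53 ± 0.13, in 9 of 9 arrays each.

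Sterol and fatty acid synthesis, whose late steps haloperidol is known to inhibit in cultured cells, was slightly lower as values. Of 27 tested genes 17 were lower and 10 higher, with a median of -0.018, close to the -0.016 of all genes. At an unadjusted p under 0.05 there were 2, both lower, where all genes had 2.23% lower. Fdft1, squalene synthase, ran from 12.78 through 12.87 to 12.98 with medium haloperidol and from 12.96 through 13.01 to 13.25 with vehicle. Of the medium haloperidol arrays 8 lay below every vehicle array, and the difference was -0.17 ± 0.049 (adjusted p = 0.762, limma). A dimmer Fdft1 probe set was at -0.050 ± 0.062. Idi1, isopentenyl diphosphate isomerase, was at -0.23 ± 0.095 and between -0.30 and -0.17 in every block, but at -0.018 with its probe sets averaged. Fasn, fatty acid synthase, was at -0.13 ± 0.065, and Dhcr7, the last enzyme of cholesterol synthesis, at -0.14 ± 0.078.

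The receptors that haloperidol binds were little different. Drd2, its main target, ran from 8.70 through 9.33 to 9.51 with medium haloperidol and from 8.77 through 9.03 to 9.46 with vehicle, a difference of 0.15 ± 0.15 with overlapping groups. Drd1 was at 0.21 ± 0.14, and Drd3 and Drd4 were too dim to be tested. Of 12 dopamine receptor and signalling genes 9 were higher, with a median of 0.064. Pde10a, a phosphodiesterase that is abundant in striatal neurons, was at 12.91 ± 0.20 with medium haloperidol and 12.65 ± 0.14 with vehicle. Its difference of 0.25 ± 0.10 was the only one of this list at an unadjusted p under 0.05 and was above 0 in all 4 blocks. Gnal, the G protein subunit that couples D1 receptors to adenylyl cyclase, was at 0.016 ± 0.10, and Rgs9, which speeds the turn-off of D2 signals, at 0.22 ± 0.13. Striatal markers share members with this list, and 10 of 13 were higher, with a median of 0.016 and summed intensities from 50882 to 66678 in medium haloperidol and from 53789 to 62098 in vehicle. The part of dissection in these values was not tested.

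Receptors for serotonin, noradrenaline, acetylcholine and histamine were lower in 10 of 15 cases, with a median of -0.058. This median was 0.020 without medium haloperidol replicates 8 and 9 and -0.0055 without medium haloperidol replicate 4. Htr1a, the 5-HT1A receptor, ran from 9.19 through 9.82 to 10.09 with medium haloperidol and from 9.62 through 10.14 to 10.50 with vehicle. All 9 medium haloperidol arrays lay below the vehicle mean and 4 below every vehicle array. The difference of -0.45 ± 0.14 (adjusted p = 0.949, limma) was close in every block, at -0.52, -0.48, -0.45 and -0.56. Htr2a, the 5-HT2A receptor, was at -0.012 ± 0.13, Htr5a at -0.15 ± 0.11 and Adra1d, an alpha-1 adrenergic receptor that haloperidol also binds, at 0.18 ± 0.15.

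Of 13 ionotropic glutamate receptor subunits 7 were higher, with a median of 0.086, which was 0.028 without medium haloperidol replicate 4. At an unadjusted p under 0.05 there were 3, all on the higher side, where all genes had 1.5% higher and 2.23% lower. The 3 were Grin3a (0.45 ± 0.17), an NMDA receptor subunit that lowers calcium entry, Grin2a (0.39 ± 0.19) and the AMPA receptor subunit Gria1 (0.20 ± 0.088). Grin1, the subunit that every NMDA receptor needs, was at 0.090 ± 0.16. Among 12 metabotropic receptor and transport genes the split was even, 6 higher and 6 lower. Grm5, a receptor that Homer1 proteins bind, was at 12.13 ± 0.49 with medium haloperidol and 11.68 ± 0.27 with vehicle, a difference of 0.45 ± 0.20. Of its medium haloperidol arrays 6 lay above every vehicle array, and by block the difference was -0.35, 1.15, 0.56 and 0.77, so its sign turned in the first. Grm2, a presynaptic receptor that damps glutamate release, was at -0.19 ± 0.13, and Grm3 at 0.16 ± 0.14.

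Genes of inhibitory neurons were near the level of all genes. Of 18 interneuron genes 8 were higher, with a median of -0.038. Gad1, which makes GABA, was at -0.049 ± 0.061, Pvalb, the calcium buffer of fast-spiking cells, at 0.039 ± 0.065 and Slc32a1, the vesicular GABA transporter, at 0.14 ± 0.10. Npy, neuropeptide Y, was at -0.13 ± 0.060 and Tac3, a tachykinin precursor, at 0.24 ± 0.12. Of 8 GABA-A receptor subunits 5 were higher, with a median of 0.0042, and Gabra2 was at 0.21 ± 0.12.

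At the postsynaptic density 16 of 23 genes were higher, with a median of 0.036. This median was 0.147 without medium haloperidol replicates 8 and 9, the pair with the lowest mean correlation. Dlg2 and Dlg4, scaffolds that hold NMDA receptors, were at 0.32 ± 0.11 and 0.31 ± 0.13. By block Dlg2 was at 0.67, -0.19, 0.25 and 0.49, and Dlg4 at 0.65, 0.042, 0.021 and 0.43. Of 23 genes of presynaptic release 15 were higher, with a median of 0.015. Cplx2, complexin 2, which clamps and then speeds vesicle fusion, was at 13.36 ± 0.23 with medium haloperidol and 13.03 ± 0.21 with vehicle, a difference of 0.33 ± 0.12 that lay between 0.21 and 0.44 in the 4 blocks. Among voltage-gated channels 15 of 24 were higher, with a median of 0.024. Hcn2, a pacemaker channel, was at 0.33 ± 0.16, but by block at 1.02, -0.29, 0.15 and 0.41. Cacna2d1, the calcium channel subunit that gabapentin binds, was at -0.39 ± 0.17 and lower in every block.

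Signalling lists split close to the share of all genes. RGS and G protein genes were higher in 9 of 24 cases, with Gnai2, an inhibitory G protein subunit, at 0.25 ± 0.12 and Rgs4 at -0.015 ± 0.060. Gnb1 was at 0.28 ± 0.13 on its brightest probe set and at -0.28 with its probe sets averaged, so no direction holds for it. Akt, Gsk3 and Wnt genes were higher in 11 of 24 cases, with Rps6kb1, the S6 kinase, at -0.16 ± 0.071. Ctnnb1, beta-catenin, was at 0.29 ± 0.15 and at -0.026 with its probe sets averaged. Calmodulin kinase and calcineurin genes were higher in 7 of 16 cases, with Camk1g at 0.22 ± 0.095 and Ppp3cc, a catalytic subunit of calcineurin, at -0.29 ± 0.13.

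Of 17 clock genes, whose median was -0.024, 2 were higher and 4 lower at an unadjusted p under 0.05. Over all genes 1.5% were higher and 2.23% lower at this threshold. Lower as values were Per3 (-0.35 ± 0.16), Bhlhe41 (-0.24 ± 0.075), Dbp (-0.21 ± 0.095) and Nr1d2 (-0.15 ± 0.072). Higher were Hlf (0.33 ± 0.13), a transcription factor related to Dbp, and Rorb (0.49 ± 0.21), a nuclear receptor that also marks cortical layer 4. Bhlhe41 varied by block, from -0.50 to 0.026, and Hlf was between 0.16 and 0.50. With probe sets averaged Hlf was at 0.12 and Rorb at 0.19. The sources used here do not give the time of day of tissue collection.

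Lists of oxidative phosphorylation, ribosomal protein, proteasome, heat shock and glucocorticoid-responsive genes had medians from -0.025 to 0.012. Of 46 oxidative phosphorylation genes 34 were lower, with a median of -0.018, and the member with the smallest p, Atp5pb of the ATP synthase, was at -0.097 ± 0.050. Ribosomal protein genes were higher in 18 of 30 cases, with a median of 0.0031, and proteasome genes in 11 of 30, with a median of -0.012. Heat shock and unfolded protein genes were higher in 13 of 24 cases, with the chaperones Hspa4 at 0.34 ± 0.17 and Hspa1a at -0.24 ± 0.14. Of 13 glucocorticoid-responsive genes 10 were lower, with a median of -0.025, and Klf9, the member with the smallest p, was at -0.077 ± 0.040. None of these 5 lists had a member at an unadjusted p under 0.05.

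**Figure D4:**
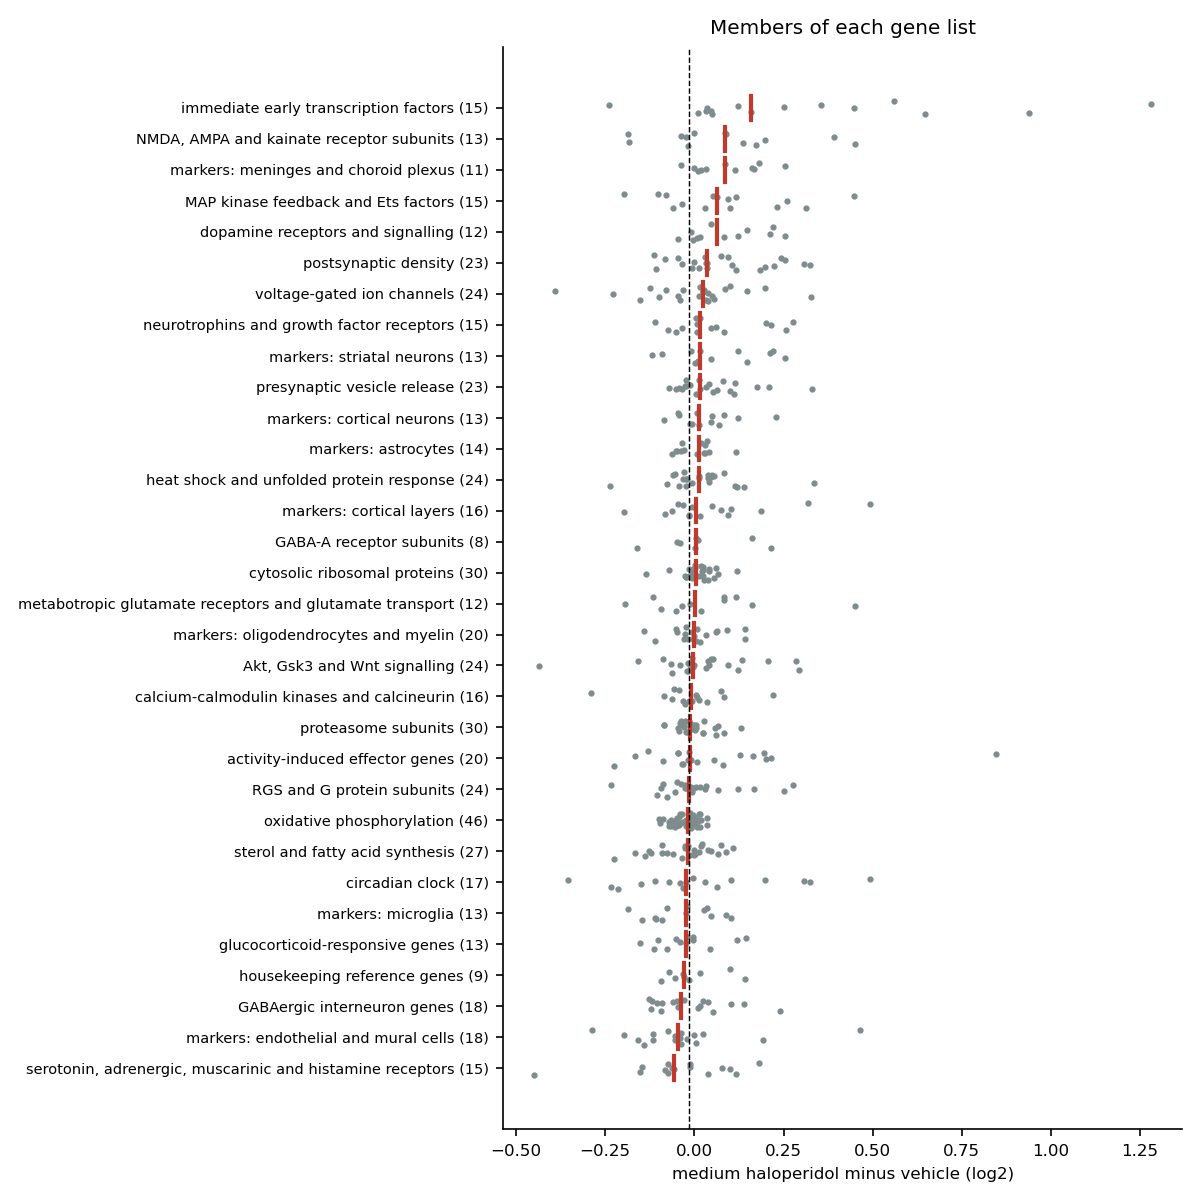
Difference in log2 intensity between medium haloperidol and vehicle for each tested member (dots) of every gene list but blood, with the list's median (bar), the number of members in brackets and a dashed line at the median of all genes (-0.016). The immediate early transcription factors have the highest median (0.16), and the other bars lie between -0.058 and 0.086.

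Markers of cell types were compared in the same way. Astrocyte markers were higher in 8 of 14 cases (median 0.013), oligodendrocyte and myelin markers in 9 of 20 (-0.0021), microglial markers in 5 of 13 (-0.024) and cortical layer markers in 8 of 16 (0.0050). Endothelial and mural markers were lower in 14 of 18 cases (-0.047), although Flt1, a receptor for vascular endothelial growth factor, was at 0.47 ± 0.24, and at 0.11 with its probe sets averaged. Meningeal and choroid plexus markers were higher in 9 of 11 cases, with a median of 0.085, led by the collagens Col1a1 (0.25 ± 0.23) and Col3a1 (0.16 ± 0.16) and by Igf2 (0.17 ± 0.15). Their summed intensity ran from 93060 to 142801 with medium haloperidol and from 92490 to 136485 with vehicle, and the defining choroid plexus markers Ttr, Kl and Folr1 were too dim to be tested. Only 2 blood markers were tested, the haemoglobin gene Hbb at 0.071 ± 0.24 and Alas2 at -0.13 ± 0.29. None of these members was called, and the part of meningeal tissue in the other values was not tested.

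The medium level was set against the levels on either side of it in the same fit. The high haloperidol arrays were spread unevenly over the blocks, with 2, 2, 0 and 5, against 3, 2, 2 and 2 at low haloperidol. On the Homer1 probe set 1370454_at the means were 12.37 ± 0.26 with vehicle, 12.81 ± 0.37 at low, 13.20 ± 0.22 at medium and 13.27 ± 0.28 at high haloperidol (SD, n = 9 each). Medium exceeded low by 0.39 ± 0.15 and differed from high by -0.066 ± 0.15, neither past the threshold, so the neighbouring levels were not told apart. With block as a term the difference from high was -0.060 ± 0.16, and without the last block it was -0.24 ± 0.17. Mfsd4a averaged 13.50 ± 0.084 with vehicle, 13.39 ± 0.038 at low, 13.30 ± 0.080 at medium and 13.22 ± 0.095 at high haloperidol. At the high level both Homer1 and Mfsd4a were called (adjusted p = 0.00169 each, limma), as was Fdft1 (0.00561), and 5 probe sets (0.0268%) passed in all. At an unadjusted p under 0.05 high haloperidol against vehicle had 1442 probe sets (7.74%). Low haloperidol against vehicle had 0 calls and 792 probe sets (4.25%) at an unadjusted p under 0.05. These comparisons share the vehicle arrays with the medium one.

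The median of the immediate early transcription factor list against vehicle was 0.17 at low, 0.16 at medium and 0.092 at high haloperidol. Of its 15 tested members 10, 14 and 10 were higher than vehicle at these levels. On the probe sets described above, Fos, Egr1 and Etv5 had their highest mean at the medium level. Fos was at 9.95 ± 1.2 with vehicle, 10.65 ± 1.0 at low, 11.23 ± 0.52 at medium and 10.82 ± 0.91 at high haloperidol. Egr1 was at 14.14 ± 0.44, 14.74 ± 0.40, 14.79 ± 0.21 and 14.64 ± 0.51 with vehicle and at low, medium and high haloperidol. Etv5 was at 11.09 ± 0.20 with vehicle and at 11.44 ± 0.21, 11.54 ± 0.20 and 11.47 ± 0.21 at low, medium and high haloperidol. In these genes the 3 haloperidol means lay closer to each other than to vehicle. Medium minus the mean of low and high was 0.49 ± 0.34 for Fos, 0.10 ± 0.15 for Egr1 and 0.083 ± 0.082 for Etv5 (SE), each within 2 SE of 0, and for Egr1 it was -0.18 ± 0.17 without the last block. The dimmer Etv5 probe set had its highest mean at the high level, with 9.34 at low, 9.31 at medium and 9.60 at high haloperidol.

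**Figure D5:**
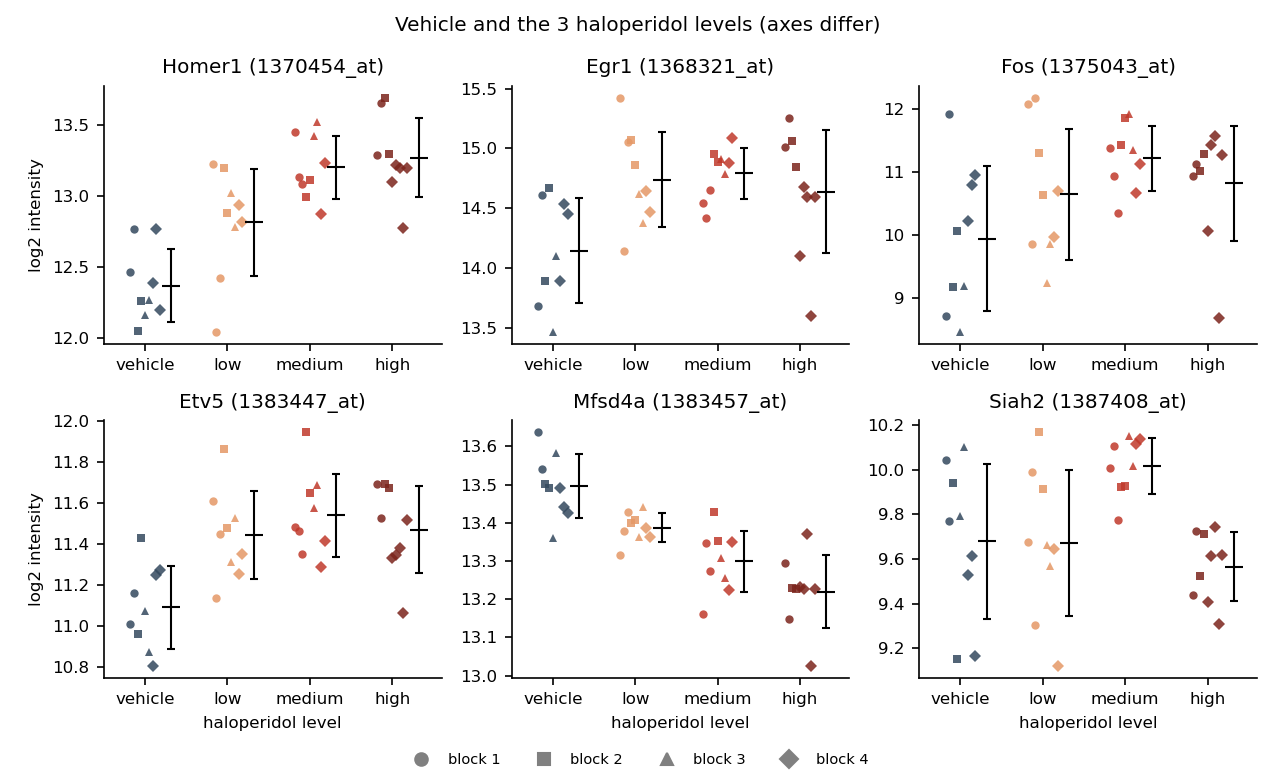
Log2 intensity on each array with vehicle and at low, medium and high haloperidol, with mean and SD bars (n = 9 each) and symbols for the 4 blocks of sample numbers. Homer1 means run from 12.37 with vehicle to 13.27 at the high level and Mfsd4a means from 13.50 to 13.22, while Siah2 stands highest at the medium level (10.02).

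Medium haloperidol against the mean of the low and high levels holds no vehicle array in its difference. Its normalisation and spread came from all 63 arrays, the vehicle ones included. This comparison gave 0 calls of 18625 probe sets (0%) by limma, with 324 (1.74%) at an unadjusted p under 0.05. Siah2, a ubiquitin ligase, came nearest. It was at 10.02 ± 0.13 in medium haloperidol, against 9.67 ± 0.33 at low and 9.57 ± 0.16 at high haloperidol, and differed from their mean by 0.40 ± 0.098. With block as a term this was 0.36 ± 0.093, and without the last block 0.31 ± 0.11. No medium haloperidol array was below 9.78, and no high haloperidol array was above 9.74. Siah2 was picked by its small p in this comparison, and such gaps between levels were not counted over all probe sets. The next on the higher side were the chemokine Ccl19 (0.44 ± 0.13), the interferon-induced Ifitm1 (0.36 ± 0.11), Lhfpl2 (0.19 ± 0.058) and Brinp1 (0.19 ± 0.061). On the lower side Dact1 (-0.53 ± 0.15), Vwa1 (-0.40 ± 0.11), Dcakd (-0.36 ± 0.12), Supt3h (-0.20 ± 0.059) and the ubiquitin ligase Marchf1 (-0.29 ± 0.090) had the smallest p. Without medium haloperidol replicates 8 and 9 Ccl19 was at 0.27 and Vwa1 at -0.22, without the last block Marchf1 was at -0.16, and with probe sets averaged Lhfpl2 was at 0.078 and Dcakd at -0.22. Medium minus low gave 297 probe sets (1.59%) and medium minus high 613 (3.29%) at an unadjusted p under 0.05, with 0 calls (0%) in each by limma.

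Against clozapine, an atypical antipsychotic, at the level of the same name, medium haloperidol gave 0 calls (0%) by limma and 1164 probe sets (6.25%) at an unadjusted p under 0.05. The amounts behind the level names are not known and may differ. Homer1 1370454_at was at 13.20 ± 0.22 with medium haloperidol and 13.19 ± 0.28 with medium clozapine, a difference of 0.0091 ± 0.15. Fos was at 11.23 ± 0.52 with medium haloperidol and 11.97 ± 0.49 with medium clozapine, a difference of -0.74 ± 0.39. Arc was at 11.75 ± 0.71 with medium haloperidol and 12.37 ± 0.81 with medium clozapine (-0.62 ± 0.27). Egr1 differed by 0.044 ± 0.18 and Egr4 by 0.032 ± 0.12, and Hlf was higher as a value with medium haloperidol, by 0.41 ± 0.13. The probe set 1370997_at of Homer1 was lower as a value with medium haloperidol than with medium clozapine, by -0.48 ± 0.21.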

How the data were processed

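Total RNA of rat frontal cortex was measured on Affymetrix arrays. The authors deposited 1 linear intensity per probe set and array, and the values show that each array had been scaled to the same trimmed mean. The sources used here do not give the software, background correction or summarisation behind them. Without detection calls in the deposited table, dim probe sets could be left out only by their mean.

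From these intensities the 63 neuroleptic arrays were quantile-normalised together, raised to a floor of 32 and turned into log2 units. The 57 control probe sets were dropped, and the 60% of probe sets with the highest mean were tested. Of the values of the 18 arrays 5.79% lay below the floor. Linear models had 1 mean per group, 1 shared spread and no covariate. They came from limma 3.58.1 under R 4.3.3, through lmFit and eBayes, followed by Benjamini-Hochberg adjustment. Log2 differences had a median SE of 0.102, and the number of arrays limits the precision. The model fit and the calls were tested on simulated data with independent noise in each probe set and no blocks. Such data cannot show how these steps handle the blocks seen here. Figures were drawn with matplotlib 3.10.9.

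Of the probe sets without controls 20826 had 1 gene symbol in the platform's annotation, 436 had several and 9780 had none. Each gene was represented by its brightest probe set. The members and the 33 gene lists were chosen with earlier results of these data known. Named genes were the 15 of lowest p each way, up to 3 members of each list, all probe sets of Homer1, 19 genes of prior interest (16 tested), every called or non-overlapping gene and the 5 most different from the other haloperidol levels in each direction. Egr2, Nr4a1, Nr4a2, Nr4a3, Junb, Jund, Ier2, Vgf, Etv4, Dhcr7, Per3, Dbp, Nr1d2 and the brighter Vldlr probe set were named after their values were seen. List counts and medians are descriptions without a test.

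Alternatives were no quantile normalisation, other floors and filters, the 18 arrays alone, block or sample number as a covariate, array weights, averaged probe sets and each array left out. Leaving out medium haloperidol replicates 8 and 9 together, or the last block, was added after seeing the data. So were the alternatives for named genes in the comparisons whose difference holds no vehicle array.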

Additional observations from a re-analysis of the deposited data

Results flagged for a closer look

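Within the groups of 9 arrays, 9 of 222 sets of values (4.05%) held an array far from the others by Dixon's ratio, where chance gives about 1 in 20. In medium haloperidol, replicate 4 was low in 3 of them. These were the Homer1 probe set 1368319_a_at, at 11.48 log2 units where the nearest array was at 11.89, the clock gene Nr1d2, at 13.17 beside 13.36, and the scaffold Pdlim5, at 9.539 beside 9.783. Medium haloperidol replicate 5 was low in the transcription factor Klf9, at 13.84. Replicate 7 was low in P2ry12, a microglial purine receptor, at 10.88 beside 11.32. Replicate 8 was low in the ERK phosphatase Dusp5, at 8.411 beside 9.315, and high in the GABA-A receptor subunit Gabra2, at 13.11 beside 12.82. Among the vehicle arrays, replicate 1 was high in Fdft1, at 13.25 beside 13.09, and replicate 4 was low in the adaptor Grb14, at 10.27 beside 10.68.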

How the results depend on the processing

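Homer1 1370454_at kept its direction under all alternatives run (0.44 to 0.92) and its call under all but averaged probe sets and 7 left-out arrays. Probe sets called higher numbered 2 with sample number as a covariate, with array weights and without the last block (Etv5 added each time), 0 with probe sets averaged, and 0 to 2 with single arrays left out. Called lower was 1 with array weights (1381752_at), and 0 to 1 with single arrays left out. The unadjusted count of 874 became 528 with 40% of probe sets tested, 1456 with no filter and 1443 with block as a term, and it ran from 657 to 1019 with single arrays left out. Non-overlapping probe sets higher numbered 0 with probe sets averaged, 2 without medium haloperidol replicates 8 and 9, 7 without the last block and 1 to 4 with single arrays left out. The lower ones numbered 5 with no filter, 10 without the last block and 3 to 5 with single arrays left out, where fewer arrays make separation easier. With no filter, medium haloperidol had 1 call above the mean of low and high and 1 above high, both the dim Hfe probe set (1.65 ± 0.31, adjusted p = 0.0393, and 1.96 ± 0.35, adjusted p = 0.0234, limma), named after its values were seen. The unadjusted counts of the other comparisons ran from 136 to 899 for medium against the mean of low and high, 153 to 814 against low, 327 to 1278 against high and 669 to 2338 against medium clozapine. The median of the Akt, Gsk3 and Wnt list was 0.043 without the last block, and that of the postsynaptic density list 0.147 without medium haloperidol replicates 8 and 9. Of 33 list medians 16 turned sign under some alternative, 13 of them with a single array left out. Averaging the probe sets of a gene moved 24 of 107 named values by over 1.5 times, leaving out the last block 21 of 111 and leaving out medium haloperidol replicates 8 and 9 together 16 of 111. Without the last block Junb was at 0.48 and Zmpste24 at 0.19. Averaging probe sets turned the sign of Etv1 (0.052), Rgs4 (0.023), Gnb1 (-0.28), Ctnnb1 (-0.026) and Lhfpl2 (-0.028, medium minus vehicle). Gnal was at -0.072 without medium haloperidol replicates 8 and 9 and -0.11 without the last block. With single arrays left out, values near 0 changed sign in Gnal (-0.029 to 0.067), Htr2a (-0.057 to 0.048), Rgs4 (-0.033 to 0.0040) and Brinp1 (-0.027 to 0.036). The cause of these shifts was not tested. No paired analysis was possible because the labels give no replicate numbers shared between the groups.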
